A study of Rattus norvegicus with 8 samples.

Results

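Motile cilia are whip-like organelles that beat on ependymal cells and move cerebrospinal fluid along the ventricles. Their axoneme carries dynein arms, the motors of the beat, and radial spokes and tektin filaments, while every cilium, including the single primary cilium of a neuron, depends on intraflagellar transport (IFT) trains and on the BBSome, a cargo adaptor complex. The genes described here were chosen by name from the array's own gene column: dynein heavy, intermediate and light chains (Dnah, Dnai, Dnal), radial spoke heads (Rsph), tektins (Tekt), IFT and Bbs genes, and Foxj1 and Fam183b. The rule used gene names and no measured value of any gene, though the families were picked with earlier results of these data known. They comprised 45 of 26214 gene names on the array, measured by 53 probes; 25 genes were classed as motile axoneme genes (Dnah, Dnai, Dnal, Rsph, Tekt, Foxj1 and Fam183b) and 20 as cilium transport genes (Ift and Bbs).

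RNA came from the hippocampus of male Sprague Dawley rats and was hybridised, in 1 colour, to an 8-array Agilent rat slide. Normoxia was compared with hypobaric hypoxia in a decompression chamber, at a simulated altitude of 25000 ft for which the labels give 8% oxygen. The 4 groups of 2 arrays each were normoxia, and hypoxia titled day 1, day 3 and day 7; for the last group another label gives an exposure of 5 days, and the title's name is used here. No allele, drug or transgene is labelled, and no age is given in the labels used here. The labels do not say whether the 2 arrays of a group came from different animals. Each p-value sets a difference against the spread within groups, pooled over all 4 groups, and that spread may be between technical copies.

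Levels are log2 processed signals minus the 75th percentile of each array, so that 0 is a bright spot; they compare groups for 1 probe and never 2 genes with each other. Probes had to exceed background clearly, by the scanner's own flag, on both arrays of 1 group or more, and the brightest kept probe stood for its gene. This left 43 genes, 23 motile and 20 transport, of 21296 genes tested in all. Dnah5 was well above background on 1 array only, in normoxia, and Dnah7 on none, so neither was tested. A gene is said to have risen or fallen where limma's adjusted p, over all 21296 genes, was under 0.05; changes are given with ± 1 standard error, and each group mean rests on n = 2.

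The share of spots well above background ran from 84.5% to 85.6% in normoxia, 80.6% to 82.1% on day 1, 75.7% on both day 3 arrays, and 72.6% to 77.0% on day 7. Normoxia and day 1 lay in row 1 of the slide and day 3 and day 7 in row 2, so row and exposure cannot be told apart in day 3 or day 7 against normoxia, or in day 3 against day 1. Of 15 hippocampal neuron markers, 12 were well above background on all 8 arrays. All 14 tested striatum markers were higher on day 1 than in normoxia, with a median change of 3.23, and all 8 red blood cell markers were higher at every hypoxia time. The shares of all genes that were higher were 15.3%, 24.2% and 31.5% on days 1, 3 and 7. In bulk tissue, fewer cells of a type and less RNA per cell cannot be told apart.

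Motile axoneme genes were low on day 1 of hypoxia and high on day 3. On day 1, 14 of 23 fell and 0 rose, beside 20.2% of all genes that fell and 15.3% that rose, and the median change of the class was -0.34 against -0.07 over all genes. From day 1 to day 3, 15 of 23 rose and 3 fell, beside 28.2% and 23.0% of all genes. Of the 20 IFT and Bbs genes, 3 fell and 6 rose on day 1, with a median change of 0.03. From day 1 to day 3, 10 of them rose and 3 fell, with a median change of 0.10 where that of the motile genes was 0.46. The plot of changes by class sets the 2 classes side by side; no test between the classes was made.

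**Figure D1:**
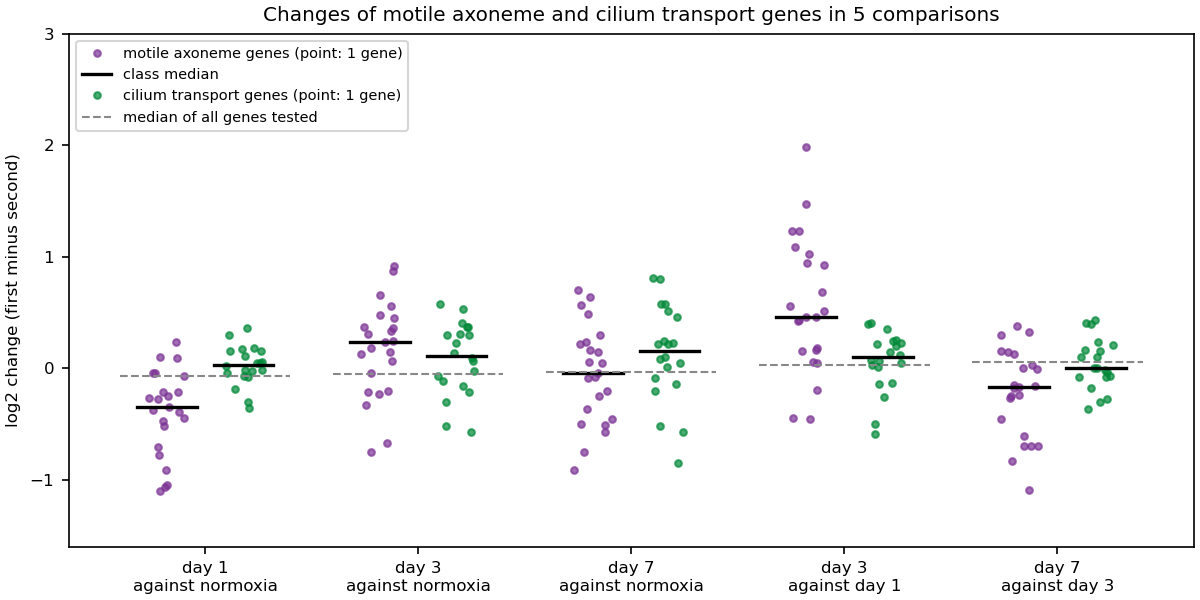
Log2 changes of 23 motile axoneme genes (purple) and 20 cilium transport genes (green) in 5 comparisons; each point is 1 gene, black bars are class medians and dashed lines the median of all 21296 genes. The motile median lay at -0.34 on day 1 against normoxia and at 0.46 on day 3 against day 1, and the transport median at 0.03 and 0.10.

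The order of the 4 group means is given as a description. The mean of day 1 was the lowest of the 4 group means for 16 of 23 motile genes (69.6%), for 7 of 20 transport genes and for 31.5% of all genes. The mean of day 3 was the highest for 13 of 23 motile genes (56.5%), 6 of 20 transport genes and 14.2% of all genes. The motile genes were dimmer as a class: 4, 9, 9 and 1 of them lay in bins 1 (dimmest) to 4 (brightest) of all genes by mean level, each of equal size, against 0, 4, 10 and 6 transport genes. In bin 3, 8 of 9 motile genes fell on day 1, 2 of 10 transport genes fell, and 25.5% of all genes there fell. In bin 2 4 of 9 motile genes and 0 of 4 transport genes fell, against 19.0% of all genes.

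Many cilium genes carry X-boxes, binding motifs of RFX transcription factors, near their start. RefSeq promoters of 300 bases on the GRCr8 build (250 before the start and 50 after it) were matched for 36 of the 45 genes, 20 motile and 16 transport; Foxj1 and Rsph1 were among those without a match. The strings searched, on both strands, were GTTGCC, an X-box half-site, and GTTNCCATG, in which N is any base and which overlaps GTTGCC where N is G. GTTGCC lay in 6 of 20 motile promoters, in 7 of 16 transport promoters and in 12.2% of all 33469 promoters. GTTNCCATG lay in 3 of 20 motile promoters, in 1 of 16 transport promoters and in 1.80% of all promoters.

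The 100 bases just before the start are given for the motile genes whose promoters held the longer string or repeated half-sites, and for Ift81 as the transport gene with the longer string. Each is written 5′ to 3′ on the gene's strand, with matches to either string, on either strand, in capitals.
Dnah2 (chr10:54766027-54766126, minus strand): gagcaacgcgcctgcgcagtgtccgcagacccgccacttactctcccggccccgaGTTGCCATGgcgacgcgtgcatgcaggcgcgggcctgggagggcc
Dnah12 (chr16:1944652-1944751, plus strand): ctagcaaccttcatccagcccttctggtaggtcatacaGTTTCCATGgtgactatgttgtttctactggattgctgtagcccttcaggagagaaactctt
Dnali1 (chr5:142611971-142612070, minus strand): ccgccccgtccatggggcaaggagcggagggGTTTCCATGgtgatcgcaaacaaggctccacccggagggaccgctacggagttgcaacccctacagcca
Fam183b (chr10:44019282-44019381, minus strand): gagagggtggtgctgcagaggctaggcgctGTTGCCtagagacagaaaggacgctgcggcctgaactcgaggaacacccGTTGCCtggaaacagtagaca
Tekt2 (chr5:143907725-143907824, minus strand): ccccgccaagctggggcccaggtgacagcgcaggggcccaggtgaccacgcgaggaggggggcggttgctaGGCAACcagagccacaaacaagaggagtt
Ift81 (chr12:39618522-39618621, plus strand): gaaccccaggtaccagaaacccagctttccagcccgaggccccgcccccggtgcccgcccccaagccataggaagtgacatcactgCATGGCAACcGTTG

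In the Dnah2, Dnah12 and Dnali1 promoters the longer string began 45, 62 and 69 bases before the start. Fam183b held half-sites beginning 70 and 21 bases before the start and a further one at 220 bases, outside the stretch shown. Tekt2 held one beginning 29 bases before the start and one after it. In Ift81 the longer string ran on the opposite strand, from 14 bases before the start, next to a second half-site that crosses the end of the stretch. Among these 6 genes, Fam183b, Tekt2, Dnah12 and Dnali1 fell on day 1, and the changes of Dnah2 (-0.52 ± 0.33) and Ift81 (0.05 ± 0.07) did not pass the test. On day 1, 14 of 23 motile genes fell, beside 20.2% of all genes. Dnah1, Rsph9, Rsph10b and Dnal1 fell as well, and their promoters held neither string. The promoters of Dnah8, Dnah17, Dnai1, Dnal4, Rsph6a and Tekt3 also held neither, and these genes did not pass the test on day 1. Of the motile genes with a single half-site and no longer string, Dnai2 and Tekt4 fell and Tekt1 did not pass the test. A link between the strings and the changes was not tested. A match is a description of letters and not of a bound site.

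Foxj1 encodes the transcription factor that switches on the motile cilium programme. Its levels were 0.03 and 0.07 (normoxia), -0.15 and -0.18 (day 1), 0.92 and 0.92 (day 3), 0.12 and 0.07 (day 7). Day 1 lay just below normoxia, day 3 far above every other array, and day 7 back beside normoxia. The changes from normoxia were -0.21 ± 0.04 (adjusted p = 0.0099) on day 1, 0.87 ± 0.04 (adjusted p = 1.4e-04) on day 3, a rise of 1.83-fold, and 0.04 ± 0.04 (adjusted p = 0.35) on day 7. Foxj1 rose by 1.08 ± 0.04 from day 1 to day 3 and fell by 0.83 from day 3 to day 7. Its small day 1 call was lost without normoxia replicate 2 or day 1 replicate 2 (-0.20 to -0.19, adjusted p from 0.051 to 0.064).

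Fam183b, now named Cfap144, encodes a cilium-associated protein; its probe lies at chr10:45022379-45022438 (rn4, minus strand) in the array's annotation. Its levels were -1.0 and -1.01 (normoxia), -2.12 and -2.09 (day 1), -0.62 and -0.64 (day 3), -1.09 and -1.09 (day 7). Both day 1 arrays lay below the other 6, and no groups overlapped. Fam183b changed by -1.10 ± 0.03 (adjusted p = 5.4e-05) on day 1, a 2.14-fold fall, rose above normoxia on day 3 by 0.37 ± 0.03 (adjusted p = 7.7e-04), and on day 7 differed from normoxia by -0.09 ± 0.03 (adjusted p = 0.069).

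**Figure D2:**
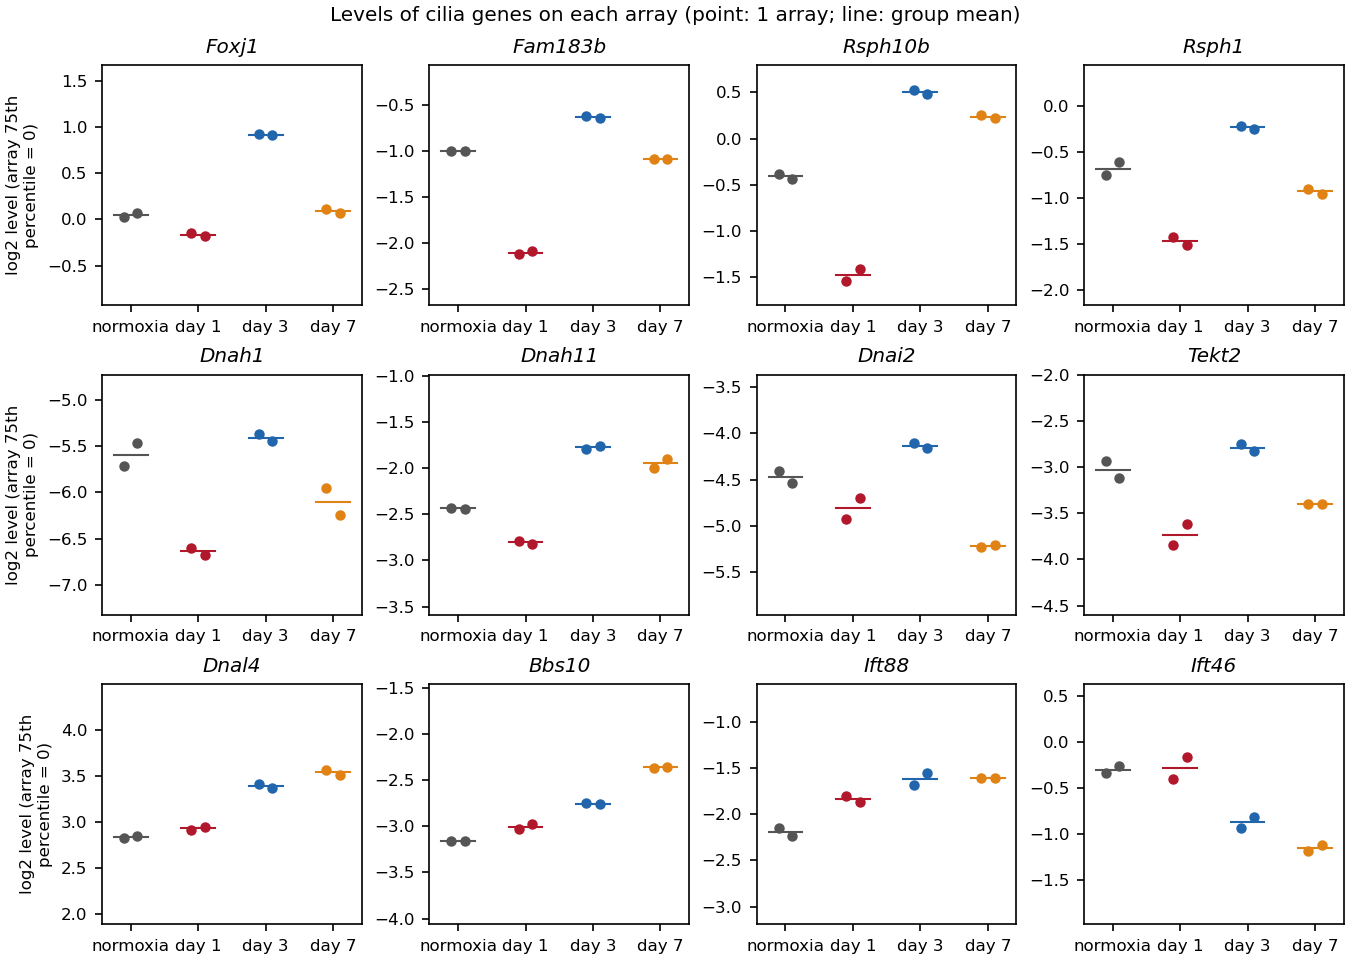
Log2 level (array 75th percentile at 0) of 12 cilia genes on each array, 2 arrays a group; points are arrays and lines group means, and every panel spans the same range of log2 units. Foxj1, Fam183b, Rsph10b, Rsph1, Dnah1, Dnah11, Dnai2 and Tekt2 were lower on day 1 than in normoxia and higher on day 3 than on day 1, while Dnal4, Bbs10, Ift88 and Ift46 took other courses. The panels do not stand for the motile class. Among motile genes not shown, Dnai1, Rsph6a and Tekt3 fell from day 1 to day 3. Dnah2, Dnah17, Dnal1, Tekt1 and Tekt5, also not shown, did not pass the test there.

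Radial spokes are the T-shaped arms that relay signals from the central pair of microtubules to the dyneins, and the 4 Rsph genes encode parts of their heads. On day 1 against normoxia, 3 fell, beside 20.2% of all genes: Rsph1, Rsph9 and Rsph10b. Rsph10b, whose probe lies at chr12:10956792-10956851 (rn4, minus strand), had levels of -0.38 and -0.44 (normoxia), -1.54 and -1.41 (day 1), 0.53 and 0.48 (day 3), 0.25 and 0.22 (day 7). Day 1 was the lowest group and day 3 the highest, with no overlap between any groups. Its change was -1.07 ± 0.06 (adjusted p = 2.9e-04) on day 1, 0.91 ± 0.06 (adjusted p = 3.1e-04) on day 3 and 0.64 ± 0.06 (adjusted p = 3.9e-04) on day 7, and it rose 3.95-fold from day 1 to day 3. The fall of Rsph10b from day 3 to day 7, -0.27 ± 0.06 (adjusted p = 0.015), was lost without day 3 replicate 1 or day 7 replicate 2 (-0.26 to -0.25, adjusted p from 0.063 to 0.07).

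Rsph1 lay at -0.76 and -0.61 (normoxia), -1.42 and -1.51 (day 1), -0.22 and -0.26 (day 3), -0.90 and -0.96 (day 7). Its day 3 rise above normoxia was 0.45 ± 0.06 (adjusted p = 0.0034) and its day 7 value lay below normoxia by 0.25. That day 7 call (adjusted p = 0.021) was lost without normoxia replicate 2 or day 7 replicate 2 (-0.22 to -0.17, adjusted p from 0.078 to 0.087), and median centring turned it to 0.050. Rsph9 changed by -0.47 ± 0.04 (adjusted p = 0.0015) on day 1 and returned, with -0.04 ± 0.04 on day 3 and -0.04 ± 0.04 on day 7. Rsph6a, a radial spoke gene best known from sperm, changed by -0.04 ± 0.04 on day 1, which did not pass the test, and fell by 0.23 on day 3 and 0.20 on day 7.

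Dynein heavy chains are the large motor subunits of the outer and inner arms. Of the 7 tested, 3 fell on day 1 and 5 rose from day 1 to day 3, and none rose on day 1 or fell between day 1 and day 3. Of all genes, 20.2% fell on day 1 and 28.2% rose from day 1 to day 3. Dnah11, an outer arm chain with its probe at chr6:145190965-145191024 (rn4, minus strand), lay at -2.43 and -2.44 (normoxia), -2.79 and -2.82 (day 1), -1.80 and -1.75 (day 3), -2.00 and -1.90 (day 7). It was lowest on day 1 and stayed above normoxia on days 3 and 7: the changes were -0.37 ± 0.05 (adjusted p = 0.004), 0.66 ± 0.05 (adjusted p = 4.4e-04) and 0.49 ± 0.05 (adjusted p = 5.7e-04). Its decrease from day 3 to day 7, -0.17 ± 0.05 (adjusted p = 0.035), was lost without either normoxia array, either day 1 array, either day 3 array or day 7 replicate 1 (-0.19 to -0.12, adjusted p from 0.063 to 0.14).

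Dnah1, an inner arm chain, was a dim probe and lay at -5.72 and -5.46 (normoxia), -6.60 and -6.68 (day 1), -5.37 and -5.44 (day 3), -5.96 and -6.25 (day 7). Both day 1 arrays were below the other 6. The day 1 change was -1.05 ± 0.13 (adjusted p = 0.0035), the day 3 change 0.18 ± 0.13 (adjusted p = 0.29) and the day 7 change -0.51 ± 0.13 (adjusted p = 0.018); only 1 of the 2 day 7 arrays was well above background. The day 7 call was lost without normoxia replicate 2 or day 7 replicate 2 (-0.38 to -0.37, adjusted p from 0.066 to 0.081), and normexp background correction turned its direction, to 0.33. Dnah12, another inner arm chain, changed by -0.45 ± 0.06, 0.48 ± 0.06 and 0.24 ± 0.06 on days 1, 3 and 7. A second, dimmer Dnah12 probe gave -0.12 ± 0.05, 0.87 ± 0.05 and -0.26 ± 0.05, so the probes disagreed in sign on day 7.

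Of the other heavy chains, Dnah10 did not pass the test on day 1 (-0.07 ± 0.11) and rose on day 3 (0.36 ± 0.11). Dnah8 changed by -0.39 ± 0.14 on day 1 and Dnah2 by -0.52 ± 0.33, neither past the test, with wide errors. Dnah17, like Dnah8 best known from sperm, showed 0.10 ± 0.05 on day 1 and rose by 0.30 on day 7; its second kept probe gave -0.52 ± 0.77 on day 7, not past the test and of the opposite sign.

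Dynein intermediate chains hold the outer arm together at its base. Dnai2 lay at -4.40 and -4.53 (normoxia), -4.93 and -4.70 (day 1), -4.10 and -4.16 (day 3), -5.23 and -5.21 (day 7). Day 3 was the highest group and day 7 the lowest, below both day 1 arrays. Its changes were -0.34 ± 0.09 (adjusted p = 0.035), 0.34 ± 0.09 (adjusted p = 0.027) and -0.75 ± 0.09 (adjusted p = 0.0012), and from day 3 to day 7 it fell 2.12-fold. The day 1 call was lost without either normoxia array, day 1 replicate 1, either day 3 array or either day 7 array (-0.41 to -0.23, adjusted p from 0.059 to 0.14), the day 3 call without normoxia replicate 2 or either day 3 array (0.27 to 0.37, adjusted p from 0.07 to 0.12), and normexp correction brought the day 7 change to 0.05. Dnai1 took another course: -0.22 ± 0.12 on day 1, not past the test, then -0.67 ± 0.12 on day 3 and -0.92 ± 0.12 on day 7, both past it.

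Among the light chains, Dnali1, a light intermediate chain of the inner arms, fell by 0.25 on day 1 and rose by 0.30 on day 3 and 0.14 on day 7. Dnal1, an outer arm light chain, lay at -3.09 and -2.98 (normoxia), -3.30 and -3.30 (day 1), -3.24 and -3.26 (day 3), -2.79 and -2.94 (day 7). It fell by 0.27 on day 1 and 0.21 on day 3, calls that were lost without either normoxia array, either day 1 array or either day 3 array (-0.32 to -0.21, adjusted p from 0.05 to 0.13) for day 1 and without either normoxia array, either day 1 array or either day 3 array (-0.27 to -0.16, adjusted p from 0.054 to 0.18) for day 3. Dnal4, a dynein light chain and the only motile gene in the brightest of the 4 bins, lay at 2.82 and 2.84 (normoxia), 2.91 and 2.95 (day 1), 3.41 and 3.37 (day 3), 3.56 and 3.51 (day 7). Each group lay above the one before it: the changes were 0.10 ± 0.04 (adjusted p = 0.11) on day 1, 0.55 ± 0.04 (adjusted p = 4.0e-04) on day 3 and 0.70 ± 0.04 (adjusted p = 1.0e-04) on day 7. Its step from day 3 to day 7, 0.15 ± 0.04 (adjusted p = 0.03), was lost without any 1 of the 8 arrays (0.12 to 0.17, adjusted p from 0.052 to 0.13).

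Tektins are filament proteins of the doublet microtubules. Tekt2 changed by -0.70 ± 0.10 (adjusted p = 0.0051) on day 1, rose by 0.94 from day 1 to day 3, and lay below normoxia on day 7 by 0.37. Tekt4 lay at -1.45 and -1.32 (normoxia), -1.68 and -1.64 (day 1), -1.18 and -1.11 (day 3), -0.79 and -0.85 (day 7). It was lowest on day 1 and highest on day 7, with changes of -0.27 ± 0.06 (adjusted p = 0.019), 0.24 ± 0.06 (adjusted p = 0.02) and 0.57 ± 0.06 (adjusted p = 6.7e-04). The day 1 call was lost without normoxia replicate 2 or either day 1 array (-0.29 to -0.21, adjusted p from 0.07 to 0.097) and the day 3 call without normoxia replicate 1 or day 3 replicate 2 (0.18 to 0.21, adjusted p from 0.075 to 0.09).

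Tekt5, a dim probe of a tektin best known from sperm, lay at -4.55 and -4.75 (normoxia), -5.38 and -5.74 (day 1), -5.27 and -5.54 (day 3), -5.06 and -5.15 (day 7). All 6 hypoxia arrays lay below both normoxia arrays. The changes were -0.91 ± 0.16 (adjusted p = 0.0099) on day 1, -0.75 ± 0.16 (adjusted p = 0.012) on day 3 and -0.46 ± 0.16 (adjusted p = 0.051) on day 7. The day 1 call was lost without normoxia replicate 1 (-0.81, adjusted p = 0.054) and the day 3 call without normoxia replicate 1 or day 3 replicate 2 (-0.66 to -0.62, adjusted p from 0.055 to 0.064); without either day 1 array the day 7 change passed the test (adjusted p = 0.034). Tekt1 passed the test against normoxia only on day 7, when it fell by 0.57, and Tekt3 passed no test against normoxia.

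**Figure D3:**
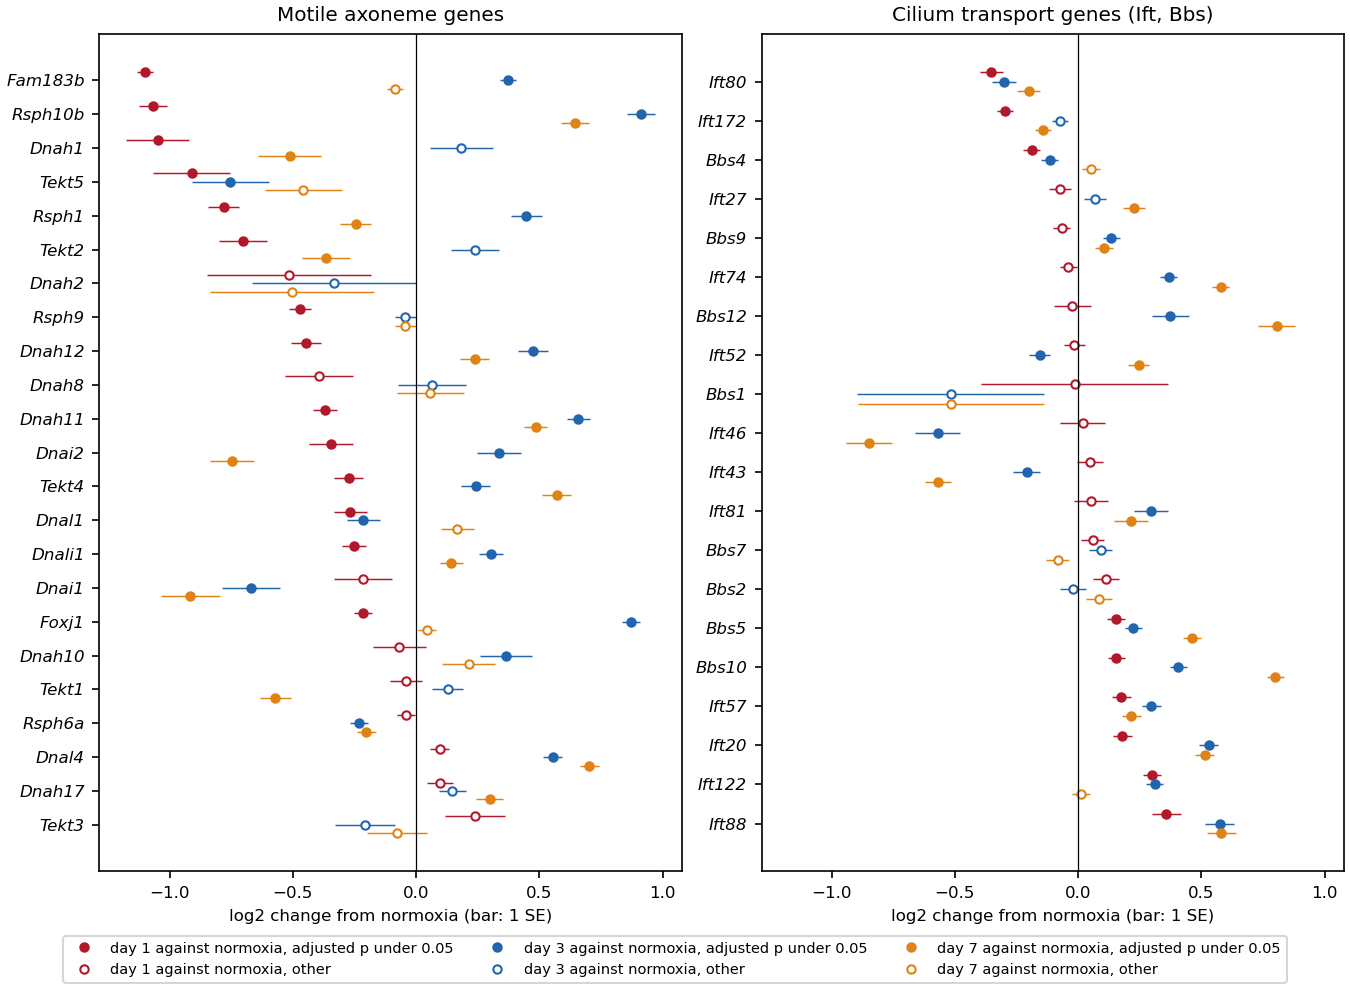
Log2 change from normoxia (x axis, bars 1 standard error) of each of the 43 tested genes on day 1 (red), day 3 (blue) and day 7 (orange); filled points have an adjusted p under 0.05 and genes are ordered by their day 1 change. On day 1 the motile genes spread from -1.10 to 0.24 and the transport genes from -0.35 to 0.36.

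On day 3 against normoxia, 11 of 23 motile genes rose and 4 fell, with a median of 0.24, beside 24.2% and 26.2% of all genes. The split was 2 lower and 14 higher under median centring and 1 lower and 14 higher under normexp correction. For day 3 against day 1 the split of 3 lower and 15 higher became 1 lower and 16 higher under quantile normalization, 0 lower and 16 higher under median centring and 1 lower and 17 higher under normexp. The comparisons on day 3 share the day 3 arrays, and those on day 1 the day 1 arrays.

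By day 7 the motile genes had no common direction: 7 of 23 lay below normoxia and 7 above, with a median of -0.04, beside 29.7% and 31.5% of all genes. That split depended on the scaling, with 4 lower and 9 higher under quantile normalization, 3 lower and 12 higher under median centring and 1 lower and 11 higher under normexp. Median centring and normexp also moved the median of all genes on day 7, from -0.03 to 0.26 and 0.22, and on day 3, from -0.05 to 0.10 and 0.13; the motile medians of day 7 were then 0.25 and 0.19, close to those of all genes. From day 3 to day 7, 11 of 23 fell and 3 rose, beside 18.3% and 24.2% of all genes, with a median of -0.17. Here the split was 7 lower and 5 higher under median centring and 6 lower and 3 higher under normexp. The genes that rose were Dnal1, Dnal4 and Tekt4.

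IFT proteins carry cargo along the axoneme of every cilium. Of 12 Ift genes, 2 fell on day 1 (Ift80, -0.35 ± 0.05, and Ift172, -0.30 ± 0.03) and 4 rose (Ift20, Ift57, Ift88 and Ift122). Of all genes, 20.2% fell on day 1 and 15.3% rose. Ift88, a core subunit needed for cilium assembly, lay at -2.15 and -2.23 (normoxia), -1.80 and -1.86 (day 1), -1.68 and -1.55 (day 3), -1.61 and -1.61 (day 7). It was higher in every hypoxia group, by 0.36 ± 0.06 (adjusted p = 0.0089), 0.57 ± 0.06 (adjusted p = 0.0012) and 0.58 ± 0.06 (adjusted p = 6.7e-04). The day 1 call was lost without day 1 replicate 1 (0.33, adjusted p = 0.056), and the step from day 1 to day 3, 0.22 ± 0.06 (adjusted p = 0.03), was lost without either day 1 array, day 3 replicate 2 or either day 7 array (0.15 to 0.25, adjusted p from 0.051 to 0.14).

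Ift74 lay at 0.88 and 0.87 (normoxia), 0.84 and 0.84 (day 1), 1.23 and 1.26 (day 3), 1.43 and 1.47 (day 7). It did not pass the test on day 1 (-0.04 ± 0.03) and rose by 0.37 ± 0.03 (adjusted p = 9.1e-04) on day 3 and 0.58 ± 0.03 (adjusted p = 1.3e-04) on day 7. Ift46 and Ift43 went the other way, with changes of -0.57 and -0.21 on day 3 and of -0.85 and -0.57 on day 7, all past the test. The probes of Ift52 and Ift122 disagreed. The brighter Ift52 probe rose on day 7 by 0.25 ± 0.04 while the dimmer one gave -1.84 ± 0.09, and the Ift122 probes gave 0.30 ± 0.04 and -0.20 ± 0.04 on day 1, so the direction of these genes is uncertain.

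Bbs genes encode the BBSome and, for Bbs10 and Bbs12, chaperonin-like proteins that help assemble it. Of 8 Bbs genes, 1 fell on day 1 and 2 rose, beside 20.2% and 15.3% of all genes. On day 7 none fell and 4 rose, beside 29.7% and 31.5% of all genes. Bbs10 lay at -3.16 and -3.16 (normoxia), -3.03 and -2.98 (day 1), -2.75 and -2.76 (day 3), -2.36 and -2.36 (day 7). Each group lay above the one before it, with changes of 0.15 ± 0.03 (adjusted p = 0.023), 0.41 ± 0.03 (adjusted p = 7.0e-04) and 0.80 ± 0.03 (adjusted p = 6.1e-05); the day 1 call was lost without either normoxia array or either day 1 array (0.13 to 0.18, adjusted p from 0.058 to 0.12). Bbs12 changed by -0.02 ± 0.08, 0.37 ± 0.08 and 0.81 ± 0.08.

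Bbs4, a BBSome subunit, lay at 1.35 and 1.38 (normoxia), 1.19 and 1.16 (day 1), 1.23 and 1.27 (day 3), 1.41 and 1.42 (day 7). Its changes were -0.19 ± 0.04 (adjusted p = 0.013), -0.12 ± 0.04 (adjusted p = 0.043) and 0.05 ± 0.04 (adjusted p = 0.26), all small. The day 1 call was lost without normoxia replicate 2 or either day 1 array (-0.20 to -0.17, adjusted p from 0.057 to 0.078), the day 3 call without any 1 of the 8 arrays (-0.13 to -0.10, adjusted p from 0.063 to 0.16) and that of day 7 against day 3 without day 3 replicate 1 or either day 7 array (0.15 to 0.17, adjusted p from 0.051 to 0.077). Median centring turned the day 3 direction, to 0.03, and a second probe gave -0.61 ± 0.07 on day 7. The brighter Bbs1 probe varied widely between the 2 day 7 arrays, -2.50 and -3.71, and Bbs1 passed no test, while its dimmer probe gave -1.52 ± 0.10 on day 7. That dimmer probe was well above background on only 1 of the 2 day 7 arrays.

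As a class, the transport genes had 5 lower and 10 higher on day 3, 4 and 11 on day 7, 3 and 10 for day 3 against day 1, and 3 and 7 for day 7 against day 3. In both directions together, 50.3%, 61.3%, 51.2% and 42.4% of all genes were called in those comparisons, and 35.5% on day 1. The shares lower and higher were 26.2% and 24.2% on day 3, and 29.7% and 31.5% on day 7. They were 23.0% and 28.2% for day 3 against day 1, and 18.3% and 24.2% for day 7 against day 3. Of the transport genes, 6 lay in the brightest bin, where 45.1% of all genes rose on day 3 and 63.7% on day 7. Without either normoxia array or either day 1 array, fewer transport genes were called on day 1, and fewer of all genes as well. The same held for day 3 without day 3 replicate 1, and for day 3 against day 1 without either day 1 array. Scaling moved the splits: for day 3 to 1 lower and 12 higher (median centring), 3 lower and 10 higher (normexp) and 3 lower and 10 higher (with the trend on probe GC removed).

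The day 7 split of the transport genes became 2 lower and 16 higher under median centring, and that of day 3 against day 1 1 lower and 13 higher. For day 7 against day 3 it was 3 lower and 4 higher under quantile normalization, 2 lower and 11 higher under median centring and 1 lower and 6 higher under normexp. Across all 4 groups, limma's F-test was past an adjusted p of 0.05 for 20 of 23 motile and 17 of 20 transport genes, beside 72.1% of all genes.

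Other motile cilium genes, a list of 90 symbols with 59 tested (central pair, dynein assembly, doublet and spoke proteins outside the named families), followed the motile class. On day 1, 32 of 59 fell and 3 rose, with a median of -0.30, beside 20.2% and 15.3% of all genes. From day 1 to day 3, 35 rose and 6 fell, with a median of 0.49, beside 28.2% and 23.0%. From day 3 to day 7, 23 fell and 4 rose, beside 18.3% and 24.2%. Ccdc40, a ruler of axonemal repeat length, changed by -0.80 ± 0.04 (adjusted p = 2.9e-04) on day 1 and 1.14 ± 0.04 (adjusted p = 9.1e-05) from day 1 to day 3. Ccdc113 changed by -0.69 ± 0.05 and 1.48 ± 0.05, and Spag1, a dynein assembly factor, by -0.62 ± 0.05 and 0.88 ± 0.05 in the same comparisons.

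Of 8 tested regulators of multiciliation, 2 fell on day 1 and 1 rose, beside 20.2% and 15.3% of all genes. From day 1 to day 3, 4 rose, beside 28.2% of all genes. Tp73, which drives the multiciliated cell programme, changed by -0.76 ± 0.06 (adjusted p = 8.6e-04) on day 1 and by 0.59 ± 0.06 (adjusted p = 0.0011) on day 3. Rfx2, an RFX factor that acts with Foxj1, changed by -0.26 ± 0.04 and 0.17 ± 0.04, and Rfx1 by 0.22 ± 0.04 and 0.44 ± 0.04. Gmnc, an upstream inducer, changed by -0.65 ± 0.21 on day 1, not past the test. Of 28 other transport genes (IFT and BBSome partners and motors), 6 fell and 5 rose on day 1, with a median of -0.03; Ttc8, a BBSome subunit also called Bbs8, changed by -0.94 ± 0.06 and Kifap3, a kinesin-2 subunit, by 0.36 ± 0.04. Of 26 neuronal primary cilium genes, 4 fell and 2 rose, among them Sstr3, a ciliary somatostatin receptor (-0.48 ± 0.06), and Adcy3, the ciliary adenylyl cyclase (0.46 ± 0.05). The day 1 counts of the other transport and primary cilium genes also stand beside 20.2% and 15.3% of all genes.

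The motile genes were set beside 10 ependyma markers that are not axoneme genes. S100b is among the astrocyte markers as well. Whether the list is particular to ependyma in this tissue was not tested, so it cannot check the ependymal label. All 10 were well above background on all 8 arrays. They did not fall together on day 1: 3 fell and 5 rose, with a median of 0.15, beside 20.2% and 15.3% of all genes. Vim, an intermediate filament gene, changed by 1.18 ± 0.04, and Nnat by -0.74 ± 0.06. From day 1 to day 3, 4 rose and 3 fell, beside 28.2% and 23.0% of all genes. Astrocyte markers were as mixed, with 4 of 12 lower and 5 higher on day 1.

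Markers of choroid plexus, the ciliated, fluid-secreting epithelium of the ventricles, took the same directions from each group to the next, with larger medians. Their order against normoxia differed: on day 3, 8 fell and 7 rose, with a median of -0.13 where that of the motile genes was 0.24. The shares of all genes that fell and rose on day 3 were 26.2% and 24.2%. Normoxia had the highest group mean for 14 of the 25 markers and day 3 for 11. Of 25 markers, 21 fell on day 1 with a median of -2.69, 23 rose from day 1 to day 3, and 22 fell from day 3 to day 7. The shares of all genes with these calls were 20.2%, 28.2% and 18.3%. Ttr, the thyroxine carrier of cerebrospinal fluid, changed by -6.52 ± 0.07 on day 1, and Sostdc1 by -6.43 ± 0.05. The log2 of their summed signal was 7.13 to 7.23 in normoxia, 3.21 to 3.23 on day 1, 7.49 to 7.58 on day 3 and 4.23 to 4.29 on day 7. All 25 were well above background in normoxia, 18 to 20 on the day 1 arrays, 23 to 24 on day 3 and 14 to 17 on day 7. Cldn2, Kl, Mfrp and Prlr were below that mark on every day 1 and day 7 array, and Prlr on both day 3 arrays as well.

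The markers of hippocampal neurons, which are no axoneme genes, had medians near those of the motile genes at several steps. On day 1, 7 of 15 fell and 5 rose, with a median of -0.24, and on day 3 against normoxia 8 rose and 3 fell, with a median of 0.18. From day 1 to day 3, 9 rose and 2 fell, with a median of 0.52, and from day 3 to day 7, 8 fell and 2 rose, with a median of -0.21. On day 7 against normoxia, 6 fell and 5 rose, with a median of -0.17. The shares of all genes that fell and rose were 20.2% and 15.3% on day 1, and 26.2% and 24.2% on day 3. On day 7 these shares were 29.7% and 31.5%. They were 23.0% and 28.2% from day 1 to day 3, and 18.3% and 24.2% from day 3 to day 7. Among the markers, Grp, a neuropeptide gene, fell by 0.97 on day 1. The log2 of their summed signal was 5.68 to 5.71 in normoxia, 5.69 to 5.70 on day 1, 6.10 to 6.12 on day 3 and 6.05 to 6.14 on day 7.

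The motile genes and the choroid plexus markers differed in their day 3 and day 7 values against normoxia. The median difference of the motile genes from normoxia was -0.29 and -0.27 on the day 1 arrays, 0.22 and 0.20 on day 3 and -0.06 and -0.03 on day 7. For the choroid plexus markers it was -2.55 and -2.83, -0.13 and -0.13 and -2.18 and -2.35. Leptomeninges markers were lower at all 3 times, with 13, 14 and 13 of 14 below normoxia, beside 20.2%, 26.2% and 29.7% of all genes. Their log2 summed signal was 5.22 to 5.22 in normoxia, 4.26 to 4.27 on day 1, 4.55 to 4.56 on day 3 and 4.13 to 4.14 on day 7. The part of choroid plexus, leptomeninges, hippocampal neuron or striatum content in the changes of the cilia genes was not tested.

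**Figure D4:**
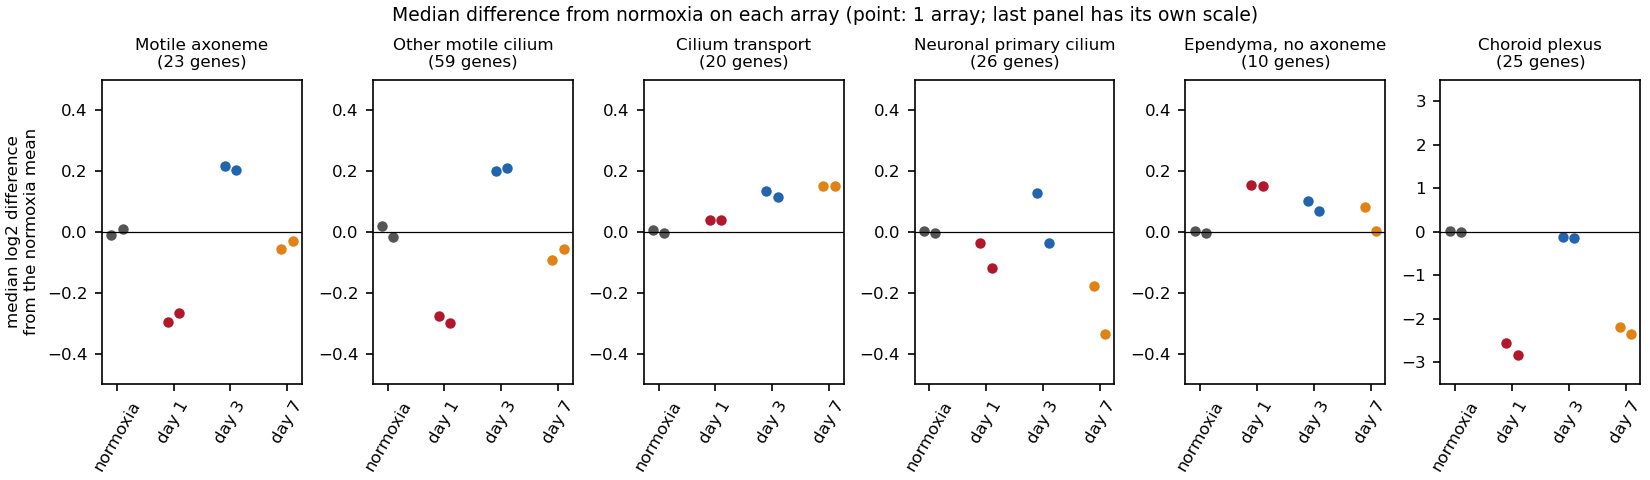
Median log2 difference from the normoxia mean over the genes of 6 lists on each array (points; 2 arrays a group), with the choroid plexus panel on a wider scale. The 23 motile genes lay at -0.29 and -0.27 on day 1 and -0.06 and -0.03 on day 7, and the 25 choroid plexus markers at -2.55 and -2.83 and -2.18 and -2.35.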

How the data were processed

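Hippocampal RNA was primed with oligo dT, labelled with Cy3 and measured on 8 arrays, 2 in each of 4 groups, per the labels' protocols. The scanner files hold spot intensities; the processed signal is the background-subtracted intensity that Agilent Feature Extraction wrote, per the file headers. The authors' deposited value table holds log2 values, which matched log2 processed signal minus each array's 75th percentile within 0.05 for 96.7% to 97.4% of probes.

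The same scale was computed here from the deposited intensities for 30346 probes with a value on every array. Spots of a probe were averaged, control spots left out, and 24678 probes kept that were well above background on both arrays of a group. Groups were compared with limma 3.58.1 in R 4.3.3 (lmFit, contrasts, eBayes; 4 residual degrees of freedom, 5 comparisons), with Benjamini-Hochberg adjustment over 21296 genes. The procedure was tested on simulated data. The number of arrays, 2 a group, limits the precision.

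The gene families, the other lists and the tests were chosen with earlier results of these data known. Every member could be named; values on all arrays are given for Foxj1, Fam183b and, in each subfamily, the gene of the smallest F-test p and that of the largest day 1 change. Rsph1 was added to these for its place in the plot of levels, after its values were seen, and the plot's other additions, Tekt2 and Ift46, likewise. From other lists, genes of the smallest day 1 p were named; 2 genes this picks are not reported here. Alternatives were other scalings (quantile normalization, median centring, a probe GC trend), normexp with an offset of 50, the authors' log2 values, other filters, the mean of probes, an intensity trend, a fit of only the groups compared, a replicate block, a 2-fold minimum and leaving out each array. Probe positions are those of the array's annotation (rn4); promoters are RefSeq's on GRCr8, and no exon or transcript position of a probe was analysed here. Promoters were read with Python 3.11.15 and pandas 2.3.3.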

Additional observations from a re-analysis of the deposited data

Results flagged for a closer look

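These genes, of the 15 given with all array values, differed between 2 exposure times in a direct limma test of one time against the other, with both times also set against the same normoxia arrays. From day 1 to day 3, the log2 changes of the motile axoneme genes were Dnah1 1.23 ± 0.13, Dnah11 1.03 ± 0.05, Dnai2 0.68 ± 0.09, Dnal4 0.46 ± 0.04, Fam183b 1.47 ± 0.03, Foxj1 1.08 ± 0.04, Rsph1 1.23 ± 0.06, Rsph10b 1.98 ± 0.06, Tekt4 0.51 ± 0.06, with adjusted p from 3.3e-05 to 0.0025. Those of the transport genes were Bbs10 0.25 ± 0.03, Ift74 0.41 ± 0.03, Ift88 0.22 ± 0.06, with adjusted p from 6.4e-04 to 0.03. From day 3 to day 7, the changes below 0 were Dnah1 -0.69 ± 0.13, Dnah11 -0.17 ± 0.05, Dnai2 -1.09 ± 0.09, Fam183b -0.46 ± 0.03, Foxj1 -0.83 ± 0.04, Rsph1 -0.69 ± 0.06, Rsph10b -0.27 ± 0.06, with adjusted p from 3.6e-04 to 0.035. Those above 0 were Bbs10 0.40 ± 0.03, Bbs4 0.17 ± 0.04, Dnal1 0.38 ± 0.07, Dnal4 0.15 ± 0.04, Ift74 0.21 ± 0.03, Tekt4 0.33 ± 0.06, with adjusted p from 0.0013 to 0.03. Each value rests on 2 arrays a group, and both arrays of the later time lay on the stated side of both arrays of the earlier one. That adds little, as the genes were picked by a test on the same arrays. Of all 21296 genes, 8899 lay higher and 7737 lower without overlap on day 3 against day 1. For day 7 against day 3 these counts were 8608 and 6336.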

How the results depend on the processing

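In each alternative without a minimum fold, 10 to 14 motile genes fell on day 1 and 13 to 17 rose from day 1 to day 3, leave-one-out fits included. Beyond leaving out arrays, 141 of 168 values of the class counts and medians stayed within 1.5 times (counts) or, with their sign kept, 1 SD between arrays (medians). A count here is the total of calls in both directions, and its direction was not part of this. The motile split of day 7 went from 7 lower and 7 higher to 1 and 11 under normexp while its total stayed within 1.5 times. The cause of the changes in the other values was not tested except where a 2-fold minimum was added, which can only remove calls. With it, 3 motile genes were called on day 1, 0 on day 3, 0 on day 7, 6 for day 3 against day 1 and 1 for day 7 against day 3, and 0 transport genes in each of the 5 comparisons. The shares of all genes called with it were 3.57%, 7.09%, 11.4%, 6.48% and 3.05%, in the same order. Normexp left 5 transport genes on day 1 and 9 motile genes for day 7 against day 3, beside 27.9% and 33.8% of all genes. Fitting only the groups compared, which uses fewer arrays, left 6 transport genes for day 7 against day 3, beside 25.2% of all genes.

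The motile median of day 1 was -0.26 under quantile normalization and -0.23 under normexp. That of day 3 was 0.38 under quantile normalization and 0.39 under median centring. That of day 7 turned above 0: 0.042 (quantile normalization), 0.25 (median centring), 0.19 (normexp), 0.045 (the authors' values) and 0.00034 (a filter on all 8 arrays). The transport median of day 3 was 0.26 under median centring and 0.16 under normexp, and that of day 7 was 0.072 under quantile normalization, 0.45 under median centring and 0.12 under normexp. Of single genes, Bbs4 on day 3 (0.032) and Rsph1 on day 7 (0.050) turned under median centring, and Dnah1 (0.33) and Dnai2 (0.047) on day 7 under normexp.

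Leaving out 1 array at a time gave 10 to 13 motile calls on day 1, 10 to 16 on day 3, 10 to 14 on day 7, 13 to 18 for day 3 against day 1 and 9 to 11 for day 7 against day 3. The transport calls were 3 to 9, 9 to 15, 11 to 14, 7 to 12 and 7 to 9. The motile medians ranged from -0.34 to -0.27, 0.18 to 0.27 and -0.084 to 0.023 on days 1, 3 and 7, turning above 0 on day 7 without normoxia replicate 2; the transport medians ranged from 0.02 to 0.06, 0.10 to 0.14 and 0.13 to 0.17. A fit with 1 array left in a group assumes that it varies like the other groups. Without either normoxia array or either day 1 array, fewer of all genes were called on day 1 as well.

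The replicate numbers were given in label order and the deviations of same-numbered arrays correlated between -0.15 and 0.05, so they pair nothing. With the replicate number as a block, 12, 12, 14, 17 and 12 motile genes and 9, 13, 14, 9 and 9 transport genes were called on day 1, day 3 and day 7 against normoxia, day 3 against day 1 and day 7 against day 3. The shares of all genes called with the block were 32.6%, 48.3%, 59.6%, 48.8% and 39.6%. Dim probes limit Dnah1, Dnah2, Tekt3 and Tekt5, and having only 2 arrays a group limits every error given.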
